A study of Mus musculus with 8 samples.

Results

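The transcripts of the proteasome were compared by RNA-seq in mouse bone marrow multipotent progenitors (MPPs), between cells that express the NUP98-HOXA10hd (NA) fusion and wild-type (WT) cells. Members were the genes whose symbol starts with Psma, Psmb, Psmc, Psmd, Psme, Psmf or Psmg and a number, without pseudogenes, with a mean normalised count of at least 10 over the 8 libraries. This gave 48 of the 37980 genes in the table. Of these, 46 encode proteasome subunits, activators, an inhibitor or assembly chaperones, and 2 match by name only (Psmc3ip, a recombination factor, and Psme2b, a near copy of Psme2). Psme2b, the lowest member, had a mean of 33.8. Psmb11, the thymus-specific subunit, fell outside with a mean of 1.58, with 3 WT libraries at 0. Psmb9 was not analysed here.

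The NA mice carried NA LSL/+; Vav-Cre on a C57BL/6 strain, so that Cre under the Vav promoter turned on the fusion from the Rosa26 locus in blood cells. The WT mice were C57BL/6 and age-matched. Age, sex and whether the WT mice carried Vav-Cre were not given in the sources used here. Each of the 4 NA and 4 WT libraries came from 1000 sorted cells that were Lin-, CD48-, ckit+, Sca1+, CD135+ and CD150-. NA1 to NA4 and WT1 to WT4 denote the libraries. Nothing states that the libraries of a group came from separate mice, so p-values measure only the spread between these samples, which may be technical.

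The proteasome degrades proteins that carry ubiquitin chains. Its core particle (20S) is a barrel of alpha and beta subunits, of which 3 beta subunits (Psmb5, Psmb6 and Psmb7) cut peptides, and cells exposed to interferon exchange these for inducible subunits such as Psmb8 and Psmb10. The regulatory particle (19S) caps the barrel, where its ATPases unfold the substrate and its non-ATPase subunits bind and remove ubiquitin. Other caps, such as the activators PA28 and PA200, open the barrel without a need for ubiquitin, and dedicated chaperones assemble the parts.

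Promoters are shown for 3 genes that were lower in NA MPPs and hold, before the start, a motif of a known proteasome or interferon regulator, and for Psmd11, which was higher and holds none of the 3 motifs searched. The motifs were TGACNNNGC, the core of the antioxidant response element bound by Nfe2l1 and Nfe2l2, CCAAT, bound by NF-Y, and the interferon-stimulated response element (ISRE), searched as GAAA, any 2 bases and GAAA. Each was searched on both strands of the 300 bases around the RefSeq start (GRCm38.p6), and capitals mark the matches. The printed windows stop before the start of the transcript. They are chr14:54618023-54618245 on the minus strand, chr11:97703184-97703398, chr11:101315963-101316212 and chr11:80428365-80428614 on the plus strand, each written 5′ to 3′ along its gene.
Psmb5: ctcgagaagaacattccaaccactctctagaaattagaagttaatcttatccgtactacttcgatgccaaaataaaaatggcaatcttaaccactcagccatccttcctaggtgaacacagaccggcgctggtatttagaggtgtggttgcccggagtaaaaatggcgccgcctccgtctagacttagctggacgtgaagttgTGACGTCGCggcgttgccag
Psmb3: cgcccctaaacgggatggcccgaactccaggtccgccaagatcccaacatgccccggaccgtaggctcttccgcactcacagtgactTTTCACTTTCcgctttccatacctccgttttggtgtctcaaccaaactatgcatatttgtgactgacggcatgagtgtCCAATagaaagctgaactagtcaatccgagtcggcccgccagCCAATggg
Psme3: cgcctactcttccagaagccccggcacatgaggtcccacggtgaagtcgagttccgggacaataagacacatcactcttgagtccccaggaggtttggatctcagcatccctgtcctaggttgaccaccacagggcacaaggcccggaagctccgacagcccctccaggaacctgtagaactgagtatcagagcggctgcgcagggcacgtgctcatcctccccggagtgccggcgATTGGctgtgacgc
Psmd11: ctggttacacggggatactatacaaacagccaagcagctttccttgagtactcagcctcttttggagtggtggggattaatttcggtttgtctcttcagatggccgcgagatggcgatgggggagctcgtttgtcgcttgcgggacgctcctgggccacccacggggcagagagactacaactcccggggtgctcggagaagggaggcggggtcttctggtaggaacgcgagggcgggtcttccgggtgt

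Of the 46 proteasome genes, 38 matched a RefSeq promoter. The remaining 8 were Psma8, Psmb1, Psmb2, Psmb7, Psmc3, Psmd3, Psmd7 and Psmg2. TGACNNNGC was found in 6 of the 38 (15.8%), and in 14% of all 27025 promoters and 17.3% of the 8795 promoters of tested genes. CCAAT was found in 12 (31.6%), and in 41.1% of all promoters and 42.9% of those of tested genes. The ISRE was found in 5 (13.2%: Psmb3, Psmd4, Psmd9, Psme1 and Psmg4), and in 3.99% and 3.83%. No 2 matches of different motifs overlapped in these promoters. Among the other lower genes with a promoter, Psmd8, Psme2 and Psmg3 held none of the motifs. Psme1 held the ISRE only after the start. Psmb2, the other higher gene, and Psmd3, a lower gene, had no promoter to search. Whether a motif goes with the direction of change was not tested. A match describes the letters and shows no binding.

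Depth, estimated from the steps between low values, was between 3876893 and 4916987 reads per library, with NA4, WT2 and WT3 the shallow ones. The fourth library of each group stood close to a weighted sum of the other 3. The variance left beyond counting error was 0.00697 for NA4 and 0.00184 for WT4. An independent library with the same spread as the others would be expected to leave about 0.0280 and 0.0215. NA2 (0.0102 against 0.0278) and WT1 (0.00680 against 0.0210) also lay below their expected values when NA4 or WT4 was among the libraries summed. WT3 did so by less (0.0156 against 0.0167). Among libraries 1 to 3 alone, 2 of 6 lay below, NA2 (at 0.0253) and WT3 (at 0.0201). Calls are therefore given with and without NA4 and WT4. The Y-linked transcript Ddx3y was between 281 and 668 in the NA libraries and at most 0.888 in WT, whereas Xist was at most 2.80 in NA and at least 869 in WT. Genotype and sex cannot be told apart in these libraries. Hoxa10, whose homeodomain is part of the fusion, was between 298 and 371 in NA and between 130 and 149 in WT. The markers of the sort were present, with means of 1362 ± 111 (NA) and 1197 ± 107 (WT) for Kit and 1442 ± 45.4 and 1374 ± 68.0 for Flt3. Ly6a, which encodes Sca1, had a log2 fold change of −0.28 (adjusted p = 0.0257, and 0.163 without NA4 and WT4) and Cd48 of −1.58 (adjusted p = 0.00711, and 0.0675).

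Proteasome transcripts were changed in both directions in NA MPPs, with more genes lower than higher. In limma on log2(normalised count + 1), 10 of 46 genes passed an adjusted p of 0.05 (21.7%, against 17.9% of all 11451 genes tested). Only 2 were higher (4.35%, against 10.1% of all genes) and 8 were lower (17.4%, against 7.87%). The higher genes were Psmb2 and Psmd11. The lower genes were Psmb3, Psmb5, Psmd3, Psmd8, Psme1, Psme2, Psme3 and Psmg3. All 46 genes passed the filter on low counts. Their median log2 fold change was −0.11, and that of all genes tested was −0.011, with 32 of the 46 below 0. In 16 genes the 4 NA and 4 WT values did not overlap (34.8%, against 22% of all genes), of which NA was above WT in 4 (11.5% of all genes) and below in 12 (10.5% of all genes). Without NA4 and WT4, 1 gene was higher (Psmb2, against 3.31% of all genes) and 1 lower (Psmb5, against 1.27%), which together is 4.35% of the 46 against 4.58% of all genes, and the median was −0.10. In bulk samples fewer cells of a type and less RNA per cell cannot be told apart.

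**Figure D1:**
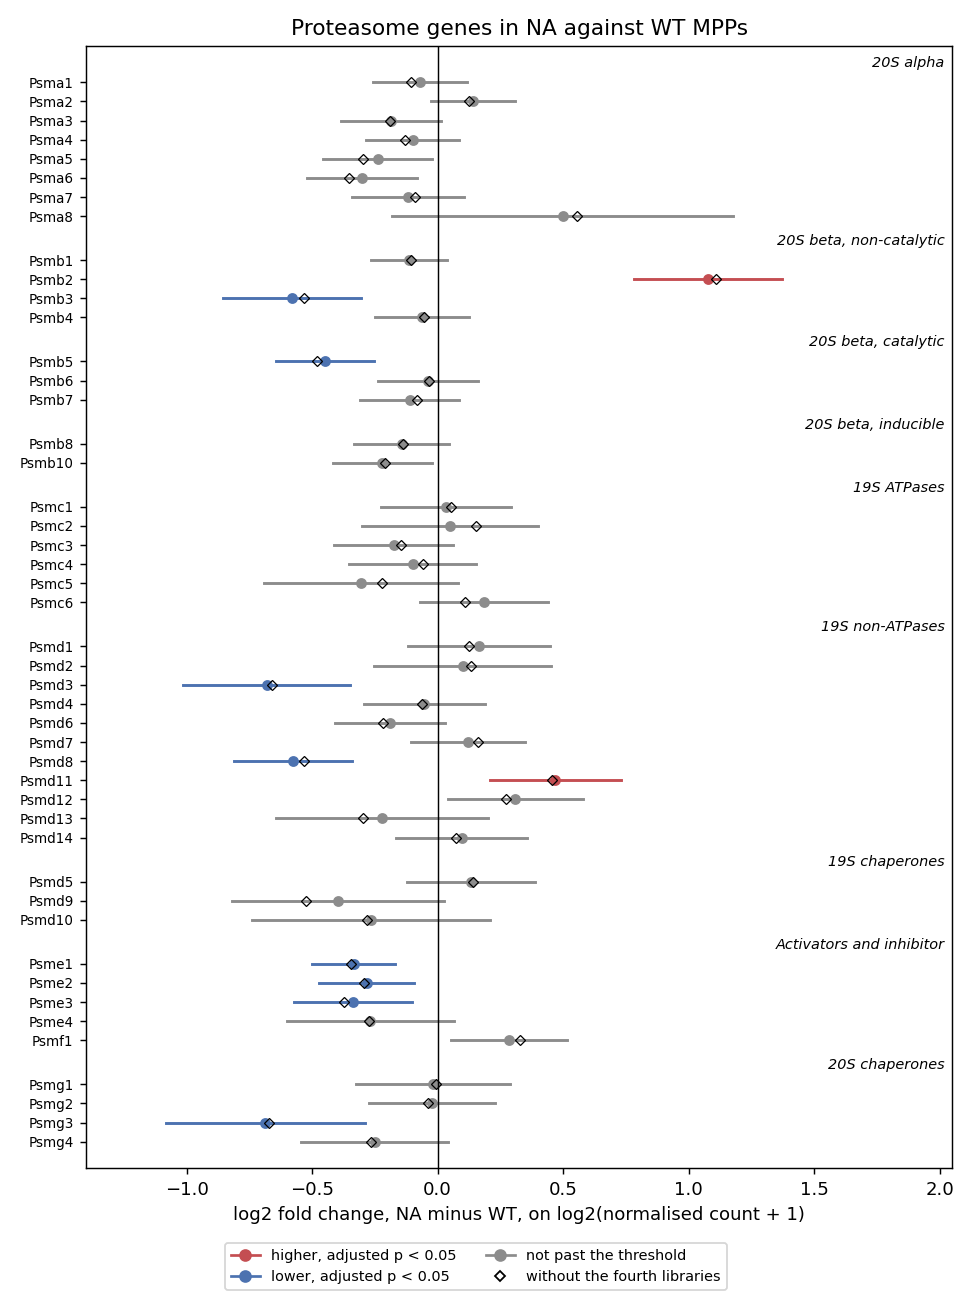
Log2 fold change of the 46 proteasome genes in NA against WT MPPs (x axis, on log2(normalised count + 1)), by role, with 95% confidence intervals from limma over 4 libraries a group and diamonds for the fit without the fourth libraries. Psmb2 stands apart at 1.08, and 8 genes lie below 0 past the threshold.

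The alpha ring, which gates the entrance to the barrel, held 0 genes past the threshold in limma, and 2 of its genes were lower at an unadjusted p under 0.05. Its 8 genes had a median log2 fold change of −0.11, and 6 were below 0. Psma6 was the lowest at −0.30 ± 0.10 (SE; adjusted p = 0.0543), and passed as lower in 4 of the 20 alternative settings. Its normalised counts were 686, 778, 643 and 824 in NA1 to NA4 and 1005, 831, 860 and 908 in WT1 to WT4, so that the groups lay side by side without overlap. The highest was Psma8, the germ-cell alpha subunit, at 0.50 ± 0.32 (adjusted p = 0.298). Its counts of 35.1 to 95.2 in NA and 26.2 to 48.8 in WT overlapped.

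Among the beta subunits without catalytic activity, Psmb2 and Psmb3 moved in opposite directions. Psmb2 (chr4:126677630-126709714) had 881, 740, 843 and 789 normalised counts in NA1 to NA4 and 364, 505, 297 and 399 in WT1 to WT4. All NA libraries were well above all WT libraries. Its means were 813 ± 61.9 (SD, n = 4) and 391 ± 86.8, a log2 fold change of 1.08 ± 0.14 (adjusted p = 0.000152). The call held without NA4 and WT4, at 1.11 (adjusted p = 0.00314), and in each of the 20 alternative settings.

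Psmb3 (chr11:97703399-97713500), its partner in the same ring, had 235, 243, 202 and 182 counts in NA1 to NA4 and 301, 342, 340 and 303 in WT1 to WT4. The NA values were all lower. Its means were 216 ± 28.7 and 322 ± 22.7, a log2 fold change of −0.58 ± 0.13 (adjusted p = 0.00718). Without NA4 and WT4 the value was −0.53 and the adjusted p 0.0860. The promoter printed above holds CCAAT at 2 positions and the ISRE at 1. Psmb1 (−0.11, adjusted p = 0.290) and Psmb4 (−0.06, adjusted p = 0.655), the other members of this group, did not pass. Within a library, the log2 ratio of Psmb2 to Psmb3 was 1.92 ± 0.23 in NA and 0.26 ± 0.33 in WT (n = 4), and the groups did not overlap. The ratios were 1.86 and 0.21 without NA4 and WT4. This pair was not among the planned ratios. It joins genes already called in opposite directions, so the gap between the groups follows from those calls.

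Of the 3 catalytic subunits, Psmb5, the chymotrypsin-like subunit and the main target of bortezomib, fell. Psmb5 (chr14:54614119-54618022) had 581, 504, 585 and 549 counts in NA1 to NA4 and 776, 771, 779 and 700 in WT1 to WT4. The lowest WT library was above the highest NA library. Its means were 555 ± 37.5 and 757 ± 37.5, a log2 fold change of −0.45 ± 0.09 (adjusted p = 0.00431). The call held without NA4 and WT4 (−0.48, adjusted p = 0.0422) and in the other 19 settings. Its promoter is the 1 with TGACNNNGC among the 8 genes past the threshold that matched a promoter. Psmb6, the caspase-like subunit, was at −0.04 (adjusted p = 0.806) and Psmb7, the trypsin-like subunit, at −0.11 (adjusted p = 0.434). Psmb7 shares 6571 bases with Nek6 on the opposite strand, and the use of strand in the counting was not given in the sources used here.

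Of the 2 inducible subunits, 0 passed in limma and 1 (Psmb10, lower) had an unadjusted p under 0.05. Psmb10 passed as lower under total-count scaling and without NA1. Psmb8, which replaces Psmb5, had 2473, 1872, 2238 and 2048 counts in NA1 to NA4 and 2323, 2511, 2364 and 2289 in WT1 to WT4. These overlapped, and its log2 fold change was −0.14 ± 0.09 (adjusted p = 0.278). Psmb10, which replaces Psmb7, was at −0.22 ± 0.09 (adjusted p = 0.112). The balance between an inducible subunit and its counterpart was compared within each library. The log2 ratio of Psmb8 to Psmb5 was 1.95 ± 0.09 in NA (from 1.89 to 2.09) and 1.65 ± 0.07 in WT (from 1.58 to 1.71), without overlap, and 1.97 and 1.63 without NA4 and WT4. The ratio of Psmb10 to Psmb7 was 0.52 ± 0.15 and 0.63 ± 0.08, with overlap.

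**Figure D2:**
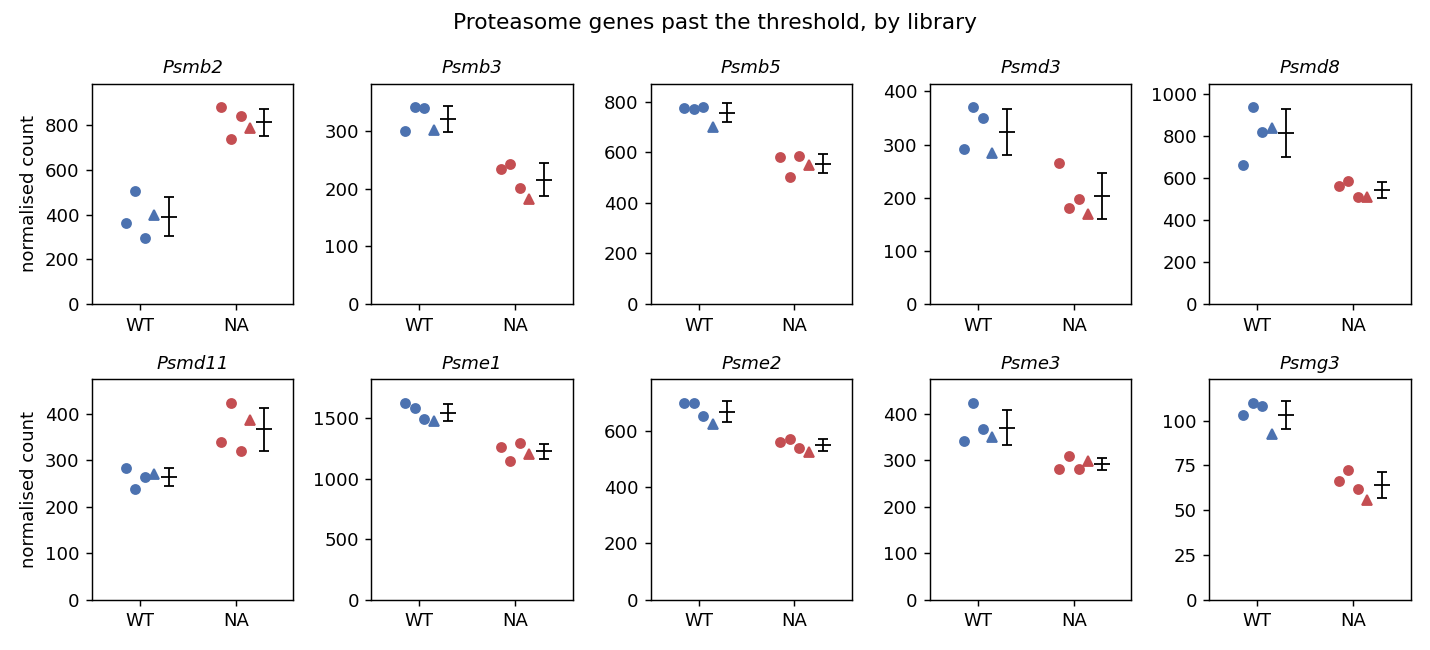
Normalised counts (y axis, from 0) of the 10 proteasome genes past the threshold in each WT and NA library, with triangles for the fourth library of each group and bars for the mean ± SD (n = 4). In each of the 10 panels the NA and WT points do not overlap.

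In the regulatory particle, 0 of the 6 ATPases passed in limma, and 0 had an unadjusted p under 0.05. Psmc6 was the highest at 0.18 ± 0.12 (adjusted p = 0.301) and Psmc5 the lowest at −0.31 ± 0.18 (adjusted p = 0.258). The counts of Psmc6 were 747, 1025, 722 and 1016 in NA1 to NA4, and between 728 and 786 in WT, so that NA3 lay below and NA2 and NA4 above all WT libraries.

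Of the 11 non-ATPase subunits, 1 rose (9.09%, against 10.1% of all genes) and 2 fell (18.2%, against 7.87%). Without NA4 and WT4, 0 passed in limma, with 1 higher and 2 lower at an unadjusted p under 0.05. Psmd11 (Rpn6, chr11:80428615-80473248), which clamps the cap to the core, had 340, 424, 321 and 386 counts in NA1 to NA4 and 283, 239, 265 and 270 in WT1 to WT4. NA was higher in every library. Its means were 368 ± 46.3 and 264 ± 18.5, a log2 fold change of 0.47 ± 0.12 (adjusted p = 0.0164). The call was lost without NA4 and WT4 (0.45, adjusted p = 0.144), without NA2 or NA4 alone, and with the GC trend of each library removed (0.31, adjusted p = 0.0580).

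Psmd8 (Rpn12, chr7:29174188-29180701), a lid subunit that joins late in assembly, had 564, 585, 512 and 513 counts in NA1 to NA4 and 663, 939, 820 and 840 in WT1 to WT4. The groups were apart, with WT1 nearest to NA. Its means were 543 ± 36.9 and 815 ± 114, a log2 fold change of −0.58 ± 0.11 (adjusted p = 0.00295). Psmd3 (Rpn3, chr11:98682554-98695979), a scaffold subunit of the lid, had 266, 181, 198 and 169 counts in NA1 to NA4 and 291, 370, 351 and 283 in WT1 to WT4. NA1 came close to WT4 without overlap. Its log2 fold change was −0.68 ± 0.16 (adjusted p = 0.00866). Without NA4 and WT4 these were −0.53 (adjusted p = 0.0548) for Psmd8 and −0.66 (adjusted p = 0.0662) for Psmd3. The other 8 non-ATPases did not pass.

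Of the 3 chaperones of the regulatory particle, 0 passed in limma and 0 had an unadjusted p under 0.05, from Psmd9 at −0.40 (adjusted p = 0.179) to Psmd5 at 0.13 (adjusted p = 0.467). Psmd10 (gankyrin), which is X-linked, was at −0.26 (adjusted p = 0.435).

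Of the 5 activators and inhibitor, 3 were lower past the threshold (60%, against 7.87% of all genes), and 0 without NA4 and WT4 in limma, where 3 were lower at an unadjusted p under 0.05. Psme1 (PA28 alpha, chr14:55578123-55581529) had 1260, 1143, 1291 and 1202 counts in NA1 to NA4 and 1625, 1580, 1491 and 1478 in WT1 to WT4. The NA values were all below WT. The means were 1224 ± 65.3 and 1544 ± 70.4, a log2 fold change of −0.33 ± 0.08 (adjusted p = 0.00923). Psme2 (PA28 beta), which forms a ring with Psme1, was between 523 and 570 in NA and between 622 and 698 in WT, a log2 fold change of −0.28 ± 0.09 (adjusted p = 0.0408). Psme2b is nearly identical to Psme2, so reads may be shared between them and the value of Psme2 is uncertain. Psme3 (PA28 gamma, chr11:101316213-101323537), which forms a nuclear ring of its own, was between 282 and 308 in NA and between 342 and 424 in WT, a log2 fold change of −0.34 ± 0.11 (adjusted p = 0.0484).

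These calls depended on the settings. Without NA4 and WT4 the adjusted p was 0.0769 for Psme1, 0.194 for Psme2 and 0.198 for Psme3. Of the 20 alternatives, Psme1 lost its call in 3, Psme2 in 12 and Psme3 in 13. With the GC trend of each library removed, Psme1 was at −0.20 (adjusted p = 0.0685). Psme4 (PA200) was at −0.27 ± 0.16 (adjusted p = 0.250). Psmf1 (PI31), long described as an inhibitor of the core, had means of 323 ± 21.1 in NA and 264 ± 5.77 in WT without overlap, a log2 fold change of 0.29 ± 0.11 that did not pass (adjusted p = 0.0812).

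Of the 4 chaperones of the core, Psmg3 (PAC3, chr5:139823592-139826885), which helps to lay down the alpha ring, fell. It shares 2816 bases with Gm26938 on the same strand, so its counts are uncertain. It had 66.3, 72.4, 61.9 and 55.5 counts in NA1 to NA4 and 103, 110, 108 and 92.3 in WT1 to WT4. NA was lower in all. Its log2 fold change was −0.69 ± 0.18 (adjusted p = 0.0204), and −0.67 (adjusted p = 0.152) without NA4 and WT4. The call was also lost without NA4 or WT1 alone. Psmg4, its partner, was at −0.25 (adjusted p = 0.219) and Psmg1 was nearest to 0 at −0.02 (adjusted p = 0.947).

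Summed over the 46 genes, proteasome transcripts were a smaller share of each NA library. They made up 5670 ± 180 CPM (counts scaled to the same library total) in NA (from 5422 to 5831) and 6350 ± 193 in WT (from 6173 to 6623), a difference of −10.7% without overlap between the groups. On the scale of the normalised counts as deposited, the difference was −6.33%, since the summed counts of the NA libraries were 4.87% larger. The difference was unequal between roles. In CPM, Psme1 and Psme2 together differed by −23.6% and the catalytic subunits by −16.4%, without overlap, and on the scale as deposited these were −19.8% and −12.3%, also without overlap. The alpha ring differed by −11.4% in CPM without overlap, and by −7.01% with overlap as deposited. The ATPases differed by −5.02% in CPM and by −0.26% as deposited, both with overlap. The non-ATPases differed by −8.40% in CPM without overlap, and by −3.96% with overlap as deposited. The chaperones of the core differed by −13.4% in CPM and by −9.16% as deposited, both without overlap. The beta subunits without catalytic activity, where Psmb2 was higher, differed by −0.88% in CPM and by 3.90% as deposited, so that the sign depended on the scale, and both overlapped. The differences in CPM without NA4 and WT4 were −10.8% for all 46 genes, −24.0% for Psme1 and Psme2, −16.2% for the catalytic subunits and −12.5% for the alpha ring. These sums are descriptions and were given no test.

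**Figure D3:**
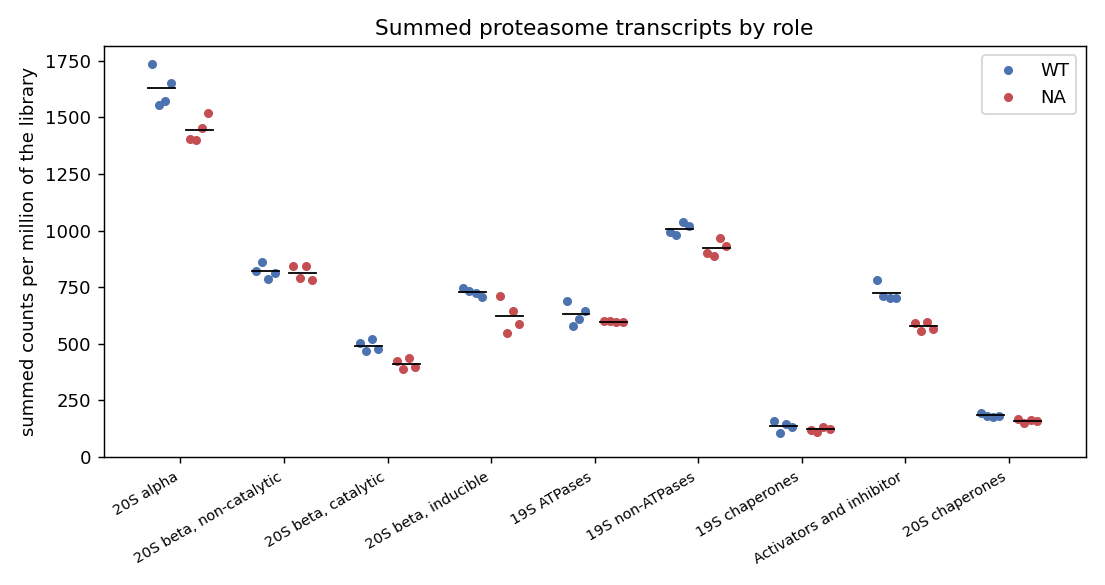
Summed CPM of the library (y axis, from 0) for each role of proteasome gene, with 1 point for each WT and NA library. On this scale the alpha ring, the catalytic subunits, the non-ATPases, the activators and inhibitor, and the core chaperones lie lower in all NA libraries. The other roles overlap, among them the beta subunits without catalytic activity.

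Levels were compared between genes as normalised counts per kb of the longest principal transcript in GENCODE M21. In WT, the 16 core genes other than Psma8 had a median level of 850 per kb and the 17 regulatory particle genes of 236 per kb. In NA the medians were 752 and 221 per kb. They were 862 and 229 in WT and 729 and 222 in NA without NA4 and WT4. Psmb8 had the highest level of the core in both groups, at 1457 ± 60.0 per kb in WT and 1325 ± 158 in NA, and Psma8 the lowest, at 24.5 ± 6.22 and 36.1 ± 14.9. Psmb2 was at 455 ± 101 per kb in WT and at 947 ± 72 in NA (453 and 956 without NA4 and WT4). In WT its level was within 1 SD, by its own SD of 101, of those of Psmb3 (420 ± 29.7) and Psmb7 (449 ± 25.1). In NA it lay among the higher core genes, near Psma1 (937 ± 91.4) and Psma7 (926 ± 135), while Psmb3 had the lowest level of the core other than Psma8 (282 ± 37.5).

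**Figure D4:**
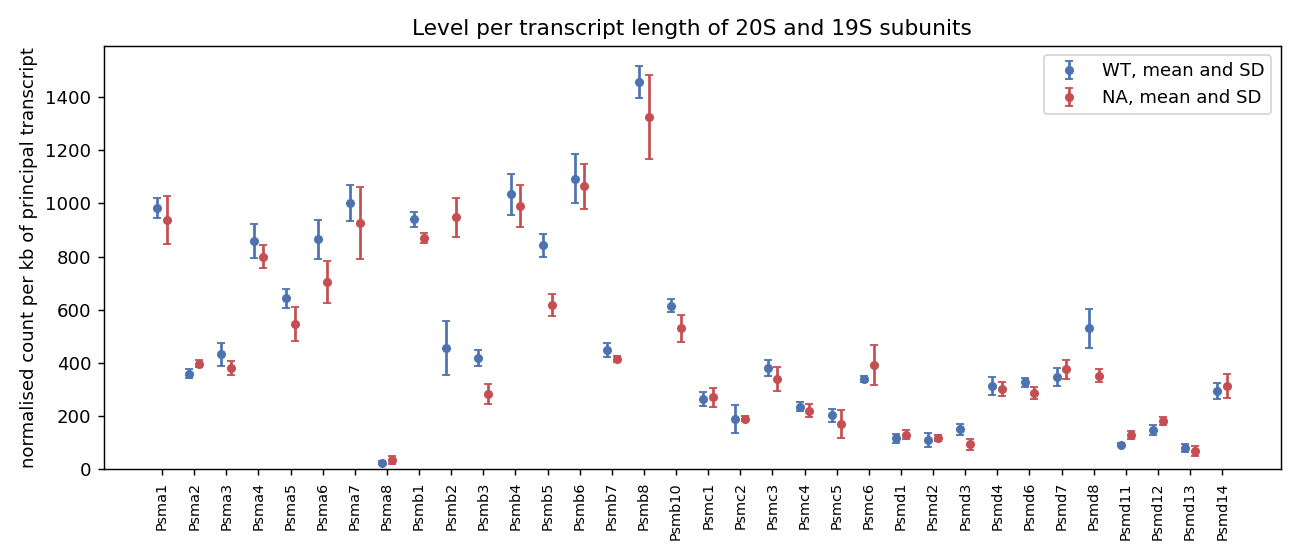
Mean level of each core and regulatory particle gene as normalised count per kb of principal transcript (y axis, from 0) in WT and NA, with bars for the SD (n = 4). Psmb8 is highest in both groups, and Psmb2 is at 455 in WT and 947 in NA.

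Of 31 further genes that build, regulate or feed the proteasome, 3 were higher (9.68%, against 10.1% of all genes) and 0 lower in limma, with 6 higher and 1 lower at an unadjusted p under 0.05. Without NA4 and WT4, 0 passed, with 2 higher and 0 lower at an unadjusted p under 0.05. Uba6, an alternative ubiquitin-activating enzyme, had 140 ± 19.1 counts in NA and 61.8 ± 19.2 in WT, a log2 fold change of 1.20 (adjusted p = 0.00219, and 0.0545 without NA4 and WT4). Ubqln2, a shuttle factor that brings ubiquitinated proteins to the proteasome, was at 0.53 (adjusted p = 0.0116, and 0.118). Uchl5, a deubiquitinase of the regulatory particle, was at 0.35 (adjusted p = 0.0371, and 0.271), a call lost in 14 of the 20 alternatives, with 0.18 (adjusted p = 0.223) once the GC trend was removed. Of the 8 genes for transcription factors of proteasome genes and their processing, 0 passed and 1 was higher at an unadjusted p under 0.05. The related factors Nfe2l1 and Nfe2l2 drive proteasome and antioxidant genes, with Nfe2l1 at −0.28 (adjusted p = 0.317) and Nfe2l2 at 0.28 (adjusted p = 0.253). Pomp, the maturation factor of the core, was at −0.10 (adjusted p = 0.510).

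Psme1, Psme2, Psmb8 and Psmb10 serve antigen presentation and respond to interferon, and the genes of both processes were examined beside them. Of 10 genes of class I peptide loading, 3 fell (30%, against 7.87% of all genes) and 0 rose in limma, with 4 lower and 0 higher at an unadjusted p under 0.05. These were the peptide transporters Tap2 (−0.72, adjusted p = 0.00426) and Tap1 (−0.42, adjusted p = 0.0399) and the light chain B2m (−0.31, adjusted p = 0.00677), of which 1, B2m, passed without NA4 and WT4 (adjusted p = 0.0230, against 0.0618 for Tap2 and 0.250 for Tap1). The call of Tap1 was lost in 9 of the 20 alternatives. H2-K1 (−0.10, adjusted p = 0.334) and Nlrc5 (0.13, adjusted p = 0.542) did not pass. Of 20 interferon response genes, Irf7 (−1.18, adjusted p = 0.000147), Mx1 (−1.54, adjusted p = 0.000782) and Ifi27 (−0.45, adjusted p = 0.00312) fell, and Irf1 rose (0.48, adjusted p = 0.0122). These 4 are 20% of the list, near the 17.9% of all genes. By direction, 15% of the list was lower (against 7.87% of all genes) and 5% higher (against 10.1%). In limma, 8 were lower and 1 higher at an unadjusted p under 0.05, and 15 of the 20 were below 0. Without NA4 and WT4, Irf7 (adjusted p = 0.00507) and Mx1 (adjusted p = 0.0109) passed, and Ifi27 (adjusted p = 0.0547) and Irf1 (adjusted p = 0.0831) did not.

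Other large complexes and the ubiquitin-conjugating E2 enzymes were described in the same way. Of 79 cytosolic ribosomal protein genes, 1 was higher (1.27%, against 10.1% of all genes) and 22 lower (27.8%, against 7.87%), with a median log2 fold change of −0.16. Of 76 nuclear genes matched by name to the respiratory chain or ATP synthase, 1 was higher (1.32%) and 11 lower (14.5%), with a median of −0.13. Of 30 ubiquitin-conjugating E2 enzymes, 6 were higher (20%) and 0 lower in limma (8 and 2 at an unadjusted p under 0.05), with a median of 0.10. Only 3 ribosomal protein genes (3.80%), 3 respiratory chain or ATP synthase genes (3.95%) and 2 E2 enzymes (6.67%) passed without NA4 and WT4, against 4.58% of all genes. The proteasome genes, at −0.11 with 2 higher and 8 lower, were not tested against these.

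Summed counts of blood lineage genes were compared between the groups too. Such sums do not tell mature cells from progenitors that express these genes. Summed counts of 6 granulocyte genes were between 1383 and 1696 in NA and between 1744 and 2545 in WT, mostly from Prtn3 (−0.41, adjusted p = 0.0181, and 0.0881 without NA4 and WT4), with Elane at 0. The 6 monocyte genes summed to 21.2 to 32.0 in NA and 35.5 to 47.1 in WT, and the 6 erythroid genes to 4.62 to 8.46 and 15.9 to 111. The 6 B cell genes gave 101 to 239 in NA and 182 to 269 in WT, with Igll1 and Ms4a1 at 0. The 6 T cell genes gave 113 to 200 and 183 to 302, with Cd3d, Cd3e, Cd3g and Cd8a at 0. The megakaryocyte genes Pf4, Itga2b, Gp1bb, Gp9 and Vwf gave 184 to 276 in NA and 202 to 275 in WT, with overlap. The granulocyte, monocyte and erythroid sums did not overlap between the groups and the B and T cell sums did, in each case with and without NA4 and WT4. The part of cells that express these lineage genes in the lower proteasome genes was not tested.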

How the data were processed

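RNA-seq of 4 NA and 4 WT MPP libraries was analysed. The authors quantified reads with RSEM, and the submitters' processing notes name bcl2fastq, DESeq2 and the build mm10. Versions, annotation and strand were not given in the sources used here. The deposited table, although labelled as raw counts, holds a normalised signal. It was inferred to be RSEM expected counts divided by 1 size factor per library. Of low values, 98.4% to 98.9% are whole multiples of a step within 0.05 of a step. Values are called normalised counts here. Symbols came from GENCODE M21 and named 32916 of 37980 rows. The test was limma (3.58.1, in R 4.3.3) with a mean-variance trend and a pseudocount of 1 on log2 values, for genes with at least 10 in at least 4 libraries, and adjusted by Benjamini-Hochberg over 11451 genes at 0.05. A fold change on this scale understates changes of low genes. The fit was tested on simulated data. Errors after fold changes are SE and after means SD. Named were all members past the threshold, Psmb5 to Psmb10, Psme1 to Psme4, Psmf1, the highest and lowest fold change of each role, and listed genes past the threshold. Genes such as Kit, Flt3, Hoxa10, Nfe2l1, Nfe2l2, Pomp, H2-K1, Nlrc5, Psma1, Psma7, Psmb1, Psmb4, Psmd10 and Psmg4 were added after their values were seen. The transcript whose length scales each gene was likewise chosen after the values were seen. A few listed genes are not reported here, and the megakaryocyte sum leaves 1 of them out, a choice made after the values were seen. Members and lists were chosen with earlier results of these data known. Scaling, pseudocount, filter, variance model, block, depth, GC content and left-out libraries were varied. The amplified cDNA carried no stated molecular identifiers, so depth covers counting error only.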

Additional observations from a re-analysis of the deposited data

Results flagged for a closer look

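In 4 of 76 groups of 4 libraries, 1 library lay far from the other 3 by Dixon's criterion, where chance gives about 3.8. Psmb5 was 700.5 in WT4 and between 771.2 and 778.8 in the other WT libraries. Psmb6 was 981.4 in WT3 and between 823 and 846 in the others. Psmc5 was 326.7 in NA1 and between 185.2 and 189.3 in the others, and without NA1 it passed the threshold as lower (log2 fold change −0.51, adjusted p = 0.0230). Psme4 was 224.7 in NA2 and between 267.8 and 275.2 in the other NA libraries.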

How the results depend on the processing

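The direction of every proteasome gene past the threshold held in all 20 alternatives. Psmb2 and Psmb5 also held their calls in all of them, with an adjusted p of at most 0.00732 and 0.0422, and Psmb3, Psmd3 and Psmd8 lost theirs only without NA4 and WT4 together. Without both, calls fell to 2 of 46 (1 higher, 1 lower) and 524 of all genes (379 higher, 145 lower). This fit has fewer samples. Leaving out 1 library gave 6 to 11 proteasome calls (1 to 2 higher, 5 to 9 lower), a median of −0.12 to −0.09, and 1125 to 2176 calls of all genes (675 to 1186 higher, 450 to 1001 lower). The median of proteasome genes was −0.16 under upper-quartile and −0.18 under total-count scaling, where that of all genes was −0.05 and −0.08, and the calls of all genes split into 954 higher of 2061 and 927 higher of 2240. Total-count scaling gave 13 proteasome calls (2 higher, 11 lower) and added Psma5, Psma6 and Psmb10, and Psma3 (GC trend removed), Psmc5 (without NA1) and Psme4 (without WT2) passed as lower in 1 setting each. Without a variance trend 5 proteasome genes and 595 of all genes were lower. With the GC trend removed 1 proteasome gene was higher. The cause was not tested. Genes near 0 changed sign without passing the threshold: Psmg1 (0.0034 with depth class, 0.032 with GC, −0.086 to 0.070 with 1 library left out), Psmb6 (0.011 with GC, −0.077 to 0.018 with 1 library left out) and Psmc6 (−0.014 with GC). Same-numbered libraries correlated at 0.0131 to 0.158, with NA4 and WT4 the highest, and libraries of different number at −0.0943 to 0.101. Not every library correlated best with its own number. These low values are not correlations of expression levels, and they do not decide whether the numbers mark pairs. With the replicate block 8 proteasome genes were called (2 higher, 6 lower), with Psme2 and Psme3 lost, and 2004 of all genes. The planned count models on recovered reads were not run, because some values near 0 were not whole multiples of a step. Low depth limits Psma8, Psmg3 and Psmd9 most.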
